A study of Mus musculus with 31 samples.

Results

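The 10 genes described here were the NF-κB precursors and subunit Nfkb1, Nfkb2 and Relb, the feedback inhibitors Nfkbia and Tnfaip3, and the inflammatory chemokines Cxcl1, Cxcl2, Cxcl3, Cxcl5 and Ccl20. They were taken by name, as the rows of these symbols' Entrez identifiers, from tables of 20704 genes for ribosome-protected fragments (RPF) and 24593 genes for total RNA, and all 10 were listed in both. The cells were a mouse skin squamous cell carcinoma (SCC) line with the genotype HRasG12V:TgfbrIIfl/fl in the labels, where the study's list of cell lines gives TgfbrII as deleted, and their endogenous Eif2s1 alleles, which encode eIF2α, had been ablated with CRISPR. A myc-tagged Eif2s1 cDNA driven by the PGK promoter replaced them, wild type in ISR-competent S51 cells and with alanine for the phosphorylated serine in ISR-null S51A cells. Cells of each genotype received DMSO (vehicle) or 100 nM bortezomib, an inhibitor of the proteasome, for 4.5 h in the labels. A figure legend of the study gives 4 h. There were 15 RPF libraries (4 per group, but 3 for S51 vehicle) and 16 libraries of total RNA (4 per group). The study used 2 clones per genotype, and the clone of each library is not given in the sources used here, so that genotype and clone cannot be told apart. Its text calls the replicates technical in one place and independent in others, and p-values measure the spread between these libraries only.

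NF-κB is a family of dimeric transcription factors that IκB proteins hold in the cytoplasm. Signals such as interleukin 1 or TNF activate the IKK kinases, which mark IκBα (Nfkbia) for ubiquitination and destruction by the proteasome, and the freed dimers enter the nucleus. The precursors p105 (Nfkb1) and p100 (Nfkb2) are processed with the help of the proteasome as well. Among the targets are genes of the pathway's own inhibitors and chemokines that draw neutrophils (Cxcl1, Cxcl2, Cxcl3, Cxcl5) or lymphocytes and dendritic cells (Ccl20) into inflamed skin. Phosphorylation of eIF2α, the step that S51A cells lack, lowers general translation.

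The RPF libraries held 1038826 to 4902237 counts and those of total RNA 18758668 to 22994713. All values below are CPM (counts divided by library sizes adjusted with TMM factors), in the order of the replicate numbers. Columns were assigned to S51 bortezomib and S51A vehicle by the series' note on exchanged titles, and Hspa1b, a heat shock gene, lay between 25.9 and 38.6 CPM in the RPF libraries so assigned to vehicle and between 596 and 1107 CPM in those of bortezomib. Keratinocyte markers were high, with 10 of 10 tested and Krt14 at 4785 to 7261 CPM in total RNA. Their summed total RNA ran from 14210.6 to 14917.8 CPM in S51 vehicle and from 17208.5 to 19890.4 in S51 bortezomib. In S51A cells it ran from 18254.8 to 18542.1 CPM under vehicle and from 19461.7 to 21497.4 under bortezomib. Of the leukocyte markers, Lyz2 and Cd3e were at 0 in all total RNA libraries and Ptprc reached 0.183 CPM. The summed level of the leukocyte markers, mostly Cd68 and Csf1r, ran from 3.57 to 4.59 CPM in S51 vehicle, from 5.37 to 6.03 in S51 bortezomib, from 7.45 to 8.48 in S51A vehicle and from 9.14 to 10.5 in S51A bortezomib. Fibroblast markers summed to at most 6.94 CPM, nearly all Pdgfra, and endothelial markers to at most 5.03 CPM. The leukocyte, fibroblast and endothelial sums moved with genotype, and so did the keratinocyte sum under vehicle. The part of these sums in the results was not tested.

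The chemokine genes Cxcl5, Cxcl3, Cxcl1 and Cxcl2 stand in this order of chromosome 5 (chr5:90759378-90905938), a stretch of 147 kb. On the GENCODE annotation of GRCm38, Cxcl5 spans chr5:90759378-90761624, Cxcl3 chr5:90786103-90788093, Cxcl1 chr5:90891241-90893115 and Cxcl2 chr5:90903873-90905938, each with 4 exons on the plus strand. Ccl20 (chr1:83116774-83119167) and Nfkb2 (chr19:46305696-46312027) lie on the plus strand, and Nfkbia (chr12:55489410-55492647), Tnfaip3 (chr10:19000910-19015410), Nfkb1 (chr3:135584655-135691546) and Relb (chr7:19606217-19629438) on the minus strand. RefSeq promoters of GRCm38.p6 were at hand for 7 of the 10 genes, Cxcl1, Cxcl2, Cxcl3, Ccl20, Nfkbia, Tnfaip3 and Nfkb2. In the 250 bases before at least 1 annotated start, 7 of these 7 held a match to the κB consensus (a purine at the fourth position, pyrimidines at the seventh and eighth), searched on both strands with overlapping matches joined, against 2225 of 27025 genes (8.23%) with a promoter and 21 of 75 other NF-κB pathway genes (28%). A match is a description of these letters and not a site shown to be used. The stretches below end at the base before the start and are shown for 6 of these 7 genes so that the matches can be read in place, with the κB matches in capitals.
Cxcl1 (chr5:90891145-90891244, plus strand): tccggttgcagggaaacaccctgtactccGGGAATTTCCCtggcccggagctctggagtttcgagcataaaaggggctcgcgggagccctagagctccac
Cxcl2 (chr5:90903799-90903898, plus strand): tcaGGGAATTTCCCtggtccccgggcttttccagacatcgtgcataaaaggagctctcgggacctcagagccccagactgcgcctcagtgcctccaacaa
Cxcl3 (chr5:90786001-90786100, plus strand): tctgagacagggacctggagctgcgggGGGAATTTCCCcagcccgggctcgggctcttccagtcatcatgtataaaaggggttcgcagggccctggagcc
Nfkbia (chr12:55492648-55492747, minus strand): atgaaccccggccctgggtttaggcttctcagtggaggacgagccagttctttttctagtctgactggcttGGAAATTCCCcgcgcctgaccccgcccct
Tnfaip3 (chr10:19015411-19015545, minus strand): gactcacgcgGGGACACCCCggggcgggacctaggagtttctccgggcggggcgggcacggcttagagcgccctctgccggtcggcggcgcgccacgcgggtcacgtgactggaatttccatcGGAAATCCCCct
Nfkb2 (chr19:46304637-46304736, plus strand): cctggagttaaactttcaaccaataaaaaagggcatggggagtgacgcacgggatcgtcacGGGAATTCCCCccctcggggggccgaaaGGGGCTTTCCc

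The Cxcl1, Cxcl2 and Cxcl3 stretches carried the same run of capitals, GGGAATTTCCC, which matched the consensus on both strands and began 71, 97 and 73 bases before the RefSeq start. These distances depend on the annotation. The Cxcl2 stretch runs to chr5:90903898, past the GENCODE start at 90903873, so its last bases lie inside the GENCODE transcript. Its match is thus nearer to the GENCODE start than to the RefSeq start. Nfkbia had its match 29 bases before the start. Tnfaip3 and Nfkb2 had 2 separate stretches each before the start shown, the nearest 12 and 11 bases away. Of their other annotated starts, the second of Tnfaip3 had no match and both of Nfkb2 had 1 each. Ccl20 had 1 match, 80 bases before its start.

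**Figure D1:**
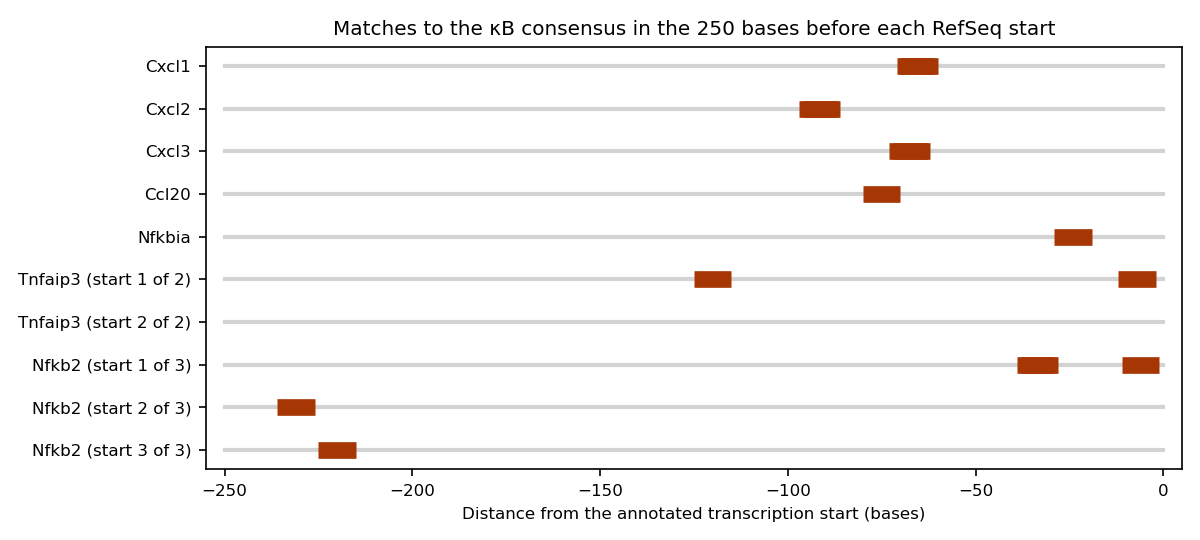
Matches to the κB consensus (brown) in the 250 bases before each RefSeq start of the 7 genes with a promoter entry, with distance from the start in bases on the x axis and 1 line per start. All but the second start of Tnfaip3 held a match, and those of Cxcl1, Cxcl3 and Ccl20 lay 71 to 80 bases before the start.

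The transcripts also differed after the coding sequence. The AU-rich nonamer TTATTTATT, a motif linked to rapid mRNA decay, occurred in the 3′ UTR of 5 of the 10 genes (Cxcl1 with 2, Cxcl2 with 4, and Cxcl3, Nfkbia and Tnfaip3 with 1 each), on the longest principal GENCODE transcript of each gene. It occurred in 7.13% of 20674 genes with a 3′ UTR. Cxcl5, Ccl20, Nfkb1, Nfkb2 and Relb had none, and its absence here says only that these letters were not found. Upstream ATGs, which can draw scanning ribosomes, occurred once in Tnfaip3 and once in Nfkb1 and in none of the other genes, while 54.4% of 20552 genes with a 5′ UTR held at least 1.

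Bortezomib lowered the mRNAs of Cxcl3 and Cxcl5 in cells of both genotypes and that of Cxcl1 in S51A cells, and under vehicle all 3 were higher in S51A than in S51 cells. In S51 cells Cxcl1 mRNA fell from a mean of 18.9 to 10.5 CPM, a change under the fold limit. In S51A cells the inhibitors Nfkbia and Tnfaip3 also fell, from means of 47.3 to 22.3 CPM and from 121 to 46.6 CPM. In S51 cells the means were 27.3 and 27.0 CPM for Nfkbia, and 50 and 32.9 CPM for Tnfaip3, a change under the fold limit. Their footprints, and those of Cxcl3 and Cxcl5, were called in the same comparisons with bortezomib as their mRNAs. In a bulk sample, fewer cells of one kind and less RNA per cell cannot be told apart.

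Cxcl3, a ligand of the neutrophil receptor CXCR2, had the largest fall with bortezomib of the 8 tested genes, in both genotypes and in both kinds of library. Its total RNA was 71.0, 60.6, 60.2 and 57.0 CPM in S51 vehicle and 13.5, 10.3, 9.28 and 8.95 CPM in S51 bortezomib. In S51A cells it was 175, 154, 145 and 128 CPM under vehicle and 37.8, 28.9, 25.3 and 22.7 CPM under bortezomib. No library of a bortezomib group reached its vehicle group, and S51A libraries under bortezomib lay below all S51 libraries under vehicle. The fall was 5.91-fold in S51 (log2 fold change -2.56, SE 0.13, adjusted p = 4.92e-14) and 5.25-fold in S51A cells (-2.39, SE 0.11, adjusted p = 8.40e-15). These and all later adjusted p-values come from the quasi-likelihood test of edgeR, with Benjamini-Hochberg adjustment over all genes tested. Cxcl3 RPF was 85.7, 119 and 73.7 CPM in S51 vehicle against 14.6, 11.5, 13.2 and 14.0 CPM in S51 bortezomib, and 219, 207, 197 and 173 CPM in S51A vehicle against 47.7, 43.9, 37.4 and 30.6 CPM in S51A bortezomib. Footprints fell 6.80-fold in S51 (-2.77, SE 0.19, adjusted p = 4.81e-10) and 4.95-fold in S51A cells (-2.31, SE 0.14, adjusted p = 1.21e-10).

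Cxcl5, another CXCR2 ligand, differed most between the genotypes. In total RNA it was 23.7, 21.8, 22.0 and 17.1 CPM in S51 vehicle and 5.39, 4.67, 5.01 and 3.33 CPM in S51 bortezomib. S51A cells had 145, 117, 123 and 88.3 CPM under vehicle and 51.1, 43.3, 42.9 and 31.7 CPM under bortezomib. Every S51A library lay above every S51 library, also when the S51A cells had bortezomib and the S51 cells had none. The S51A level was 5.61-fold that of S51 under vehicle (log2 fold change of S51 over S51A -2.49, SE 0.13, adjusted p = 4.40e-14) and 9.15-fold under bortezomib (-3.19, SE 0.18, adjusted p = 1.07e-13). With bortezomib the mRNA fell 4.57-fold in S51 (-2.19, SE 0.19, adjusted p = 5.15e-10) and 2.80-fold in S51A cells (-1.49, SE 0.12, adjusted p = 2.37e-10). Cxcl5 RPF was 35.4, 30.0 and 35.6 CPM in S51 vehicle, 5.82, 5.74, 12.1 and 6.16 CPM in S51 bortezomib, 175, 160, 166 and 129 CPM in S51A vehicle and 81.2, 78.9, 64.5 and 48.4 CPM in S51A bortezomib. Replicate 3 of S51 bortezomib stood above the other libraries of its group, and the fall in S51 was -2.05 with it (SE 0.25, adjusted p = 2.68e-06) and -2.50 without it. In S51A cells the fall of the footprints was -1.20 (SE 0.15, adjusted p = 3.52e-06).

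Cxcl1, the mouse counterpart of the human GRO chemokines, was 22.9, 21.1, 14.3 and 17.3 CPM in S51 vehicle and 12.9, 11, 8.02 and 10.3 CPM in S51 bortezomib in total RNA. In S51A cells it was 60.1, 58.5, 39.9 and 38.8 CPM under vehicle and 13.3, 12.2, 8.41 and 10.9 CPM under bortezomib. The S51A vehicle libraries stood above all others, and under bortezomib the genotypes overlapped. Cxcl1 mRNA fell 4.38-fold in S51A (-2.13, SE 0.16, adjusted p = 3.77e-11), and the 1.78-fold change in S51 cells (-0.84, SE 0.17, adjusted p = 1.81e-04) was under the 2-fold limit set for total RNA. Footprints were few. Cxcl1 RPF counts ran from 2 to 32 in the S51 libraries and from 13 to 122 in the S51A libraries, and the RPF fall was 3.09-fold in S51A (-1.63, SE 0.23, adjusted p = 1.88e-05) and was not called in S51 cells (-0.78, SE 0.32, adjusted p = 0.0718). The S51 change was called without S51 vehicle replicate 3 (-1.03) and without S51 bortezomib replicate 1 (-0.98).

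Cxcl2 and Ccl20 did not pass the filter on low counts and were not tested with the other 8 genes. Cxcl2 had 5 to 7 total RNA counts per library in S51 vehicle, 1 to 2 in S51 bortezomib, 7 to 12 in S51A vehicle and 2 to 10 in S51A bortezomib, and 0 or 1 RPF count in every library. Without the filter its total RNA was called lower in S51 than in S51A under bortezomib (-1.83, adjusted p = 0.00964). Ccl20 had at most 2 total RNA counts in any library and no RPF count in any. The 4 RPF counts of Cxcl2 were all in S51A libraries, 3 under vehicle and 1 under bortezomib. A count of 0 allows up to 3 counts by counting error alone, so no difference in footprints was detectable for either gene at this depth. Cxcl2 and Cxcl3 share 29 of their 216 coding windows of 28 bases, 13.4% of each, and reads from these windows are lost to both genes where only uniquely mapping reads are counted. No such window was shared by the other 8 genes.

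**Figure D2:**
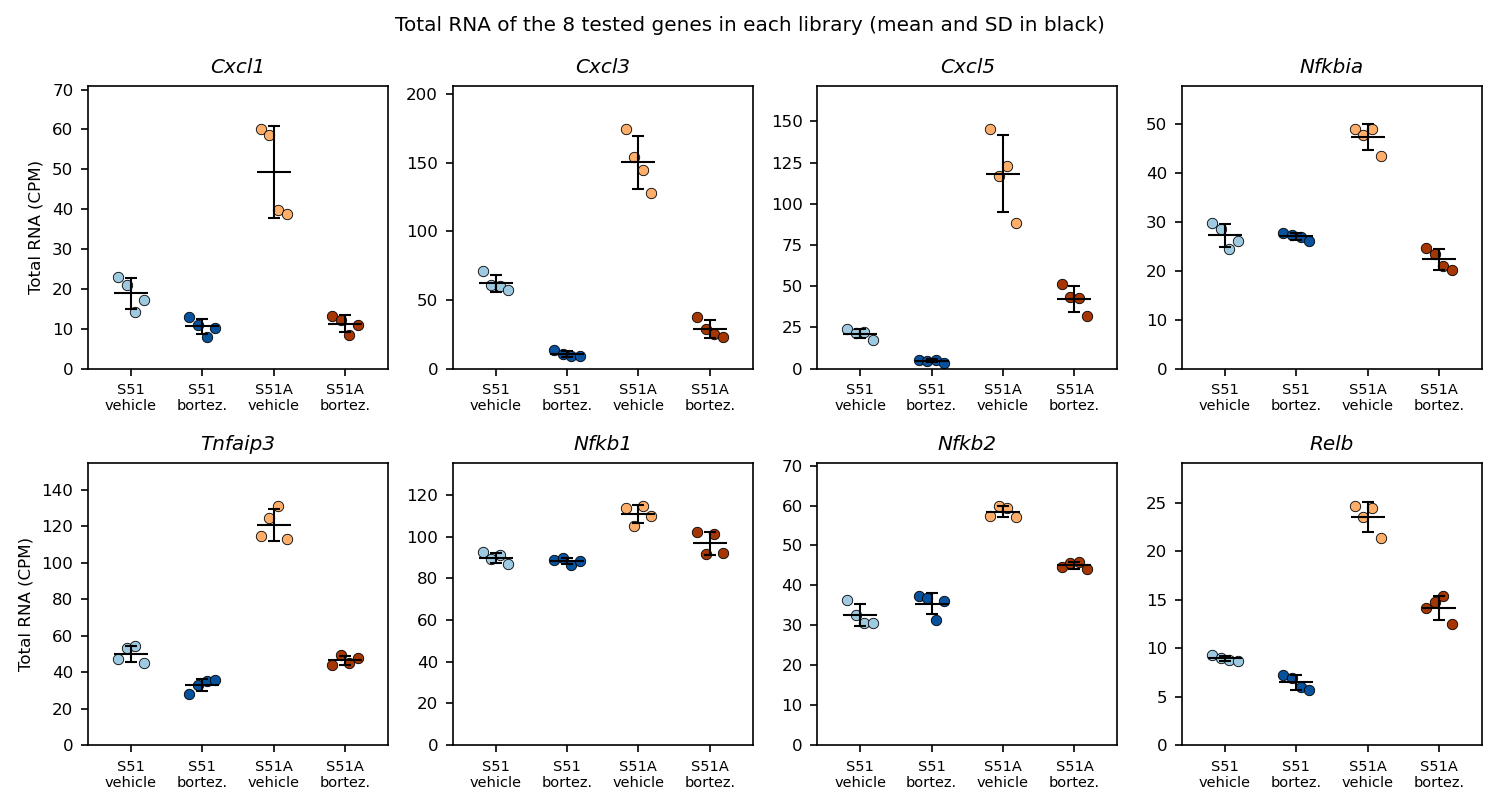
Total RNA of the 8 tested genes in CPM (y axis, from 0), with 1 point per library, n = 4 per group, and the mean and SD in black. S51A vehicle was the highest group for each gene, and Cxcl3 and Cxcl5 fell with bortezomib in both genotypes.

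**Figure D3:**
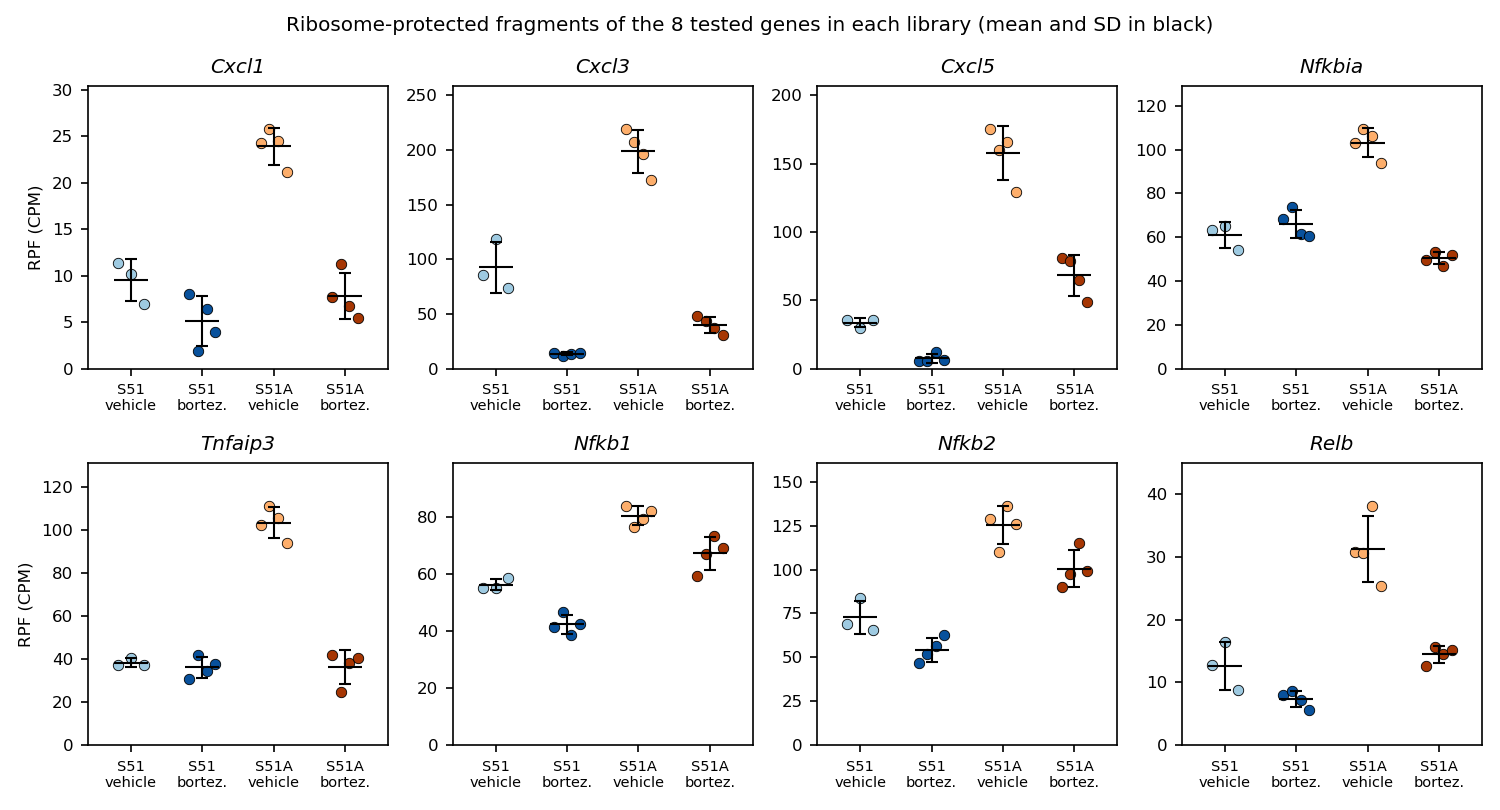
RPF of the same 8 genes in CPM (y axis, from 0), with 1 point per library, n = 3 in S51 vehicle and 4 in the other groups, and the mean and SD in black. Nfkbia and Tnfaip3 footprints were high in S51A vehicle and lay below it in all libraries of the other 3 groups.

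Nfkbia encodes IκBα, the inhibitor that binds NF-κB dimers and is itself induced by them. Its total RNA was 29.8, 28.6, 24.5 and 26.2 CPM in S51 vehicle and 27.7, 27.4, 26.9 and 26.1 CPM in S51 bortezomib. In S51A cells it was 49.0, 47.9, 49.0 and 43.5 CPM under vehicle and 24.7, 23.4, 21.0 and 20.2 CPM under bortezomib. The S51 groups overlapped, and the S51A bortezomib libraries lay below all S51 bortezomib libraries. The log2 change with bortezomib was -0.01 in S51 (SE 0.07, adjusted p = 0.907) and -1.08 in S51A cells (SE 0.07, adjusted p = 1.26e-12). RPF gave 63.4, 65.3 and 54.0 CPM in S51 vehicle, 68.4, 73.6, 61.3 and 60.5 CPM in S51 bortezomib, 103, 109, 106 and 94.1 CPM in S51A vehicle and 49.6, 53.1, 46.8 and 51.8 CPM in S51A bortezomib. Footprints of Nfkbia changed by 0.11 in S51 (SE 0.11, adjusted p = 0.502) and by -1.03 in S51A cells (SE 0.10, adjusted p = 1.23e-07). Under bortezomib Nfkbia was the only tested gene above S51A in S51 cells, by 0.28 in total RNA (SE 0.07, adjusted p = 0.00133) and by 0.37 in RPF (SE 0.11, adjusted p = 0.0127), both under the fold limits.

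Tnfaip3 encodes A20, a ubiquitin-editing enzyme that dampens signaling to the IKK kinases. Total RNA of Tnfaip3 was 47.4, 53.0, 54.3 and 45.2 CPM in S51 vehicle and 28.2, 33.1, 34.9 and 35.6 CPM in S51 bortezomib. It was 115, 124, 131 and 113 CPM in S51A vehicle and 44.2, 49.4, 45.1 and 47.6 CPM in S51A bortezomib. The S51A bortezomib libraries overlapped S51 vehicle, and S51 bortezomib lay below both. The mRNA fell 2.59-fold in S51A (-1.37, SE 0.07, adjusted p = 7.86e-15), and the 1.52-fold change in S51 cells (-0.60, SE 0.07, adjusted p = 7.04e-08) was under the 2-fold limit. Tnfaip3 RPF was 37.2, 40.6 and 37.1 CPM in S51 vehicle, 30.6, 42.1, 34.4 and 37.5 CPM in S51 bortezomib, 102, 111, 106 and 94.3 CPM in S51A vehicle and 41.9, 24.9, 38.0 and 40.6 CPM in S51A bortezomib. All groups but S51A vehicle overlapped. The RPF change was -1.49 in S51A (SE 0.13, adjusted p = 2.07e-08) and -0.09 in S51 cells (SE 0.16, adjusted p = 0.702).

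Relb encodes the transcription-activating partner of p52 in the noncanonical arm of the pathway. In total RNA it was 9.31, 9.0, 8.77 and 8.71 CPM in S51 vehicle, 7.26, 6.94, 5.98 and 5.63 CPM in S51 bortezomib, 24.7, 23.5, 24.5 and 21.3 CPM in S51A vehicle and 14.1, 14.7, 15.3 and 12.5 CPM in S51A bortezomib. No library of one group reached another group. S51A had 2.63-fold the Relb mRNA of S51 under vehicle (log2 fold change of S51 over S51A -1.39, SE 0.08, adjusted p = 1.87e-13) and 2.19-fold under bortezomib (-1.13, SE 0.09, adjusted p = 6.50e-11). Bortezomib changed the mRNA by -0.47 in S51 (SE 0.09, adjusted p = 1.35e-04) and by -0.73 in S51A cells (SE 0.08, adjusted p = 1.20e-08), both under the 2-fold limit. Relb RPF was 12.8, 16.4 and 8.71 CPM in S51 vehicle, 8.01, 8.61, 7.19 and 5.60 CPM in S51 bortezomib, 30.8, 30.6, 38.2 and 25.4 CPM in S51A vehicle and 12.6, 15.6, 14.6 and 15.1 CPM in S51A bortezomib. The RPF fall was called in S51A (-1.10, SE 0.18, adjusted p = 1.05e-04) and in S51 cells (-0.75, SE 0.27, adjusted p = 0.0369). With only the groups compared in the fit the S51 call was lost (adjusted p = 0.0908), and so it was without S51 vehicle replicate 1 or 2 and without S51 bortezomib replicate 1, 3 or 4, with adjusted p-values from 0.0502 to 0.151.

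Nfkb1 and Nfkb2 encode p105/p50 and p100/p52, and neither was called with bortezomib in either genotype, in total RNA or in RPF. Nfkb1 total RNA ran from 87.0 to 92.5 CPM in S51 vehicle, from 86.3 to 89.6 in S51 bortezomib, from 105 to 115 in S51A vehicle and from 91.8 to 102 in S51A bortezomib. Nfkb2 total RNA was 36.4, 32.5, 30.6 and 30.7 CPM in S51 vehicle, 37.3, 36.9, 31.4 and 36.1 CPM in S51 bortezomib, 57.5, 60, 59.3 and 57.1 CPM in S51A vehicle and 44.7, 45.7, 45.9 and 44.0 CPM in S51A bortezomib. For both genes the S51 groups overlapped in total RNA and S51A vehicle stood highest. The mRNA changes with bortezomib were -0.03 for Nfkb1 (SE 0.04, adjusted p = 0.585) and 0.12 for Nfkb2 (SE 0.06, adjusted p = 0.0686) in S51 cells. In S51A cells they were -0.19 (SE 0.04, adjusted p = 2.54e-04) and -0.38 (SE 0.05, adjusted p = 2.30e-06), under the fold limit. Nfkb1 RPF was 55.3, 55.1 and 58.5 CPM in S51 vehicle and 41.5, 46.9, 38.6 and 42.6 CPM in S51 bortezomib, without overlap, against 84.1, 76.7, 79.3 and 82.3 CPM in S51A vehicle and 59.3, 67.2, 73.3 and 69.3 CPM in S51A bortezomib. Nfkb2 RPF was 69.1, 83.6 and 65.7 CPM in S51 vehicle, 46.6, 51.7, 56.4 and 62.7 CPM in S51 bortezomib, 129, 110, 137 and 126 CPM in S51A vehicle and 89.9, 97.5, 115 and 99.4 CPM in S51A bortezomib. Under bortezomib S51 lay below S51A in the footprints of both, by -0.68 for Nfkb1 (SE 0.11, adjusted p = 5.89e-05) and -0.87 for Nfkb2 (SE 0.12, adjusted p = 1.21e-05).

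Per kilobase of counted coding sequence, Cxcl3 footprints were the most abundant of the 10 genes in S51A vehicle, at 819 ± 81.4 CPM per kb (SD, n = 4). Cxcl5 followed with 465 ± 58.4, then Nfkbia with 117 ± 7.44 and Cxcl1 with 104 ± 8.60 CPM per kb, neighbours whose libraries overlapped. Nfkb2 with 47.5 ± 4.19 and Tnfaip3 with 45.6 ± 3.17 CPM per kb did not differ beyond their spread, and Nfkb1 with 28.2 ± 1.16 and Relb with 19.3 ± 3.26 CPM per kb came last among those tested. These levels rest on the GENCODE coding length without the trimmed codons.

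Calls needed an adjusted p below 0.05 together with a fold above 1.5 for RPF and TE or above 2 for total RNA, and 8 of the 10 genes could be tested in each. With bortezomib in S51 cells, 2 of 8 fell in total RNA (Cxcl3 and Cxcl5), where 3.02% of all 11708 genes tested were called lower, and 3 of 8 fell in RPF (also Relb), where 11.2% of 9457 were. In S51A cells 5 of 8 fell in total RNA (Cxcl1, Cxcl3, Cxcl5, Nfkbia and Tnfaip3) against 2.55% of all genes, and 6 of 8 in RPF (also Relb) against 6.67%. None of the 8 rose in these comparisons. The median log2 change of the 8 genes in total RNA was -0.54 in S51 and -1.23 in S51A cells, beside -0.01 and -0.01 over all genes tested. Both comparisons of the genotypes share their libraries with these.

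Without bortezomib the means of all 8 genes were lower in S51 than in S51A cells, in RPF and in total RNA. Each had an adjusted p below 0.05. The share of all genes past this adjusted p alone was not counted, so passing it is not read as particular to these genes. The call, which also needs the fold, was met by 5 of 8 in total RNA (Cxcl1, Cxcl3, Cxcl5, Tnfaip3 and Relb) against 5.47% of all genes lower in S51, and by 7 of 8 in RPF (all but Nfkb1) against 9.19%. Log2 fold changes of S51 over S51A under vehicle ran from -2.49 for Cxcl5 to -0.30 for Nfkb1 in total RNA and from -2.21 to -0.51 for the same genes in RPF. With bortezomib in both, 3 of 8 were lower in S51 in total RNA (Cxcl3, Cxcl5 and Relb) against 5.54% of all genes, and 5 of 8 in RPF (Cxcl3, Cxcl5, Nfkb1, Nfkb2 and Relb) against 10%. Cxcl1 mRNA, 2.62-fold higher in S51A under vehicle, differed by -0.10 on the log2 scale under bortezomib (SE 0.19, adjusted p = 0.663).

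**Figure D4:**
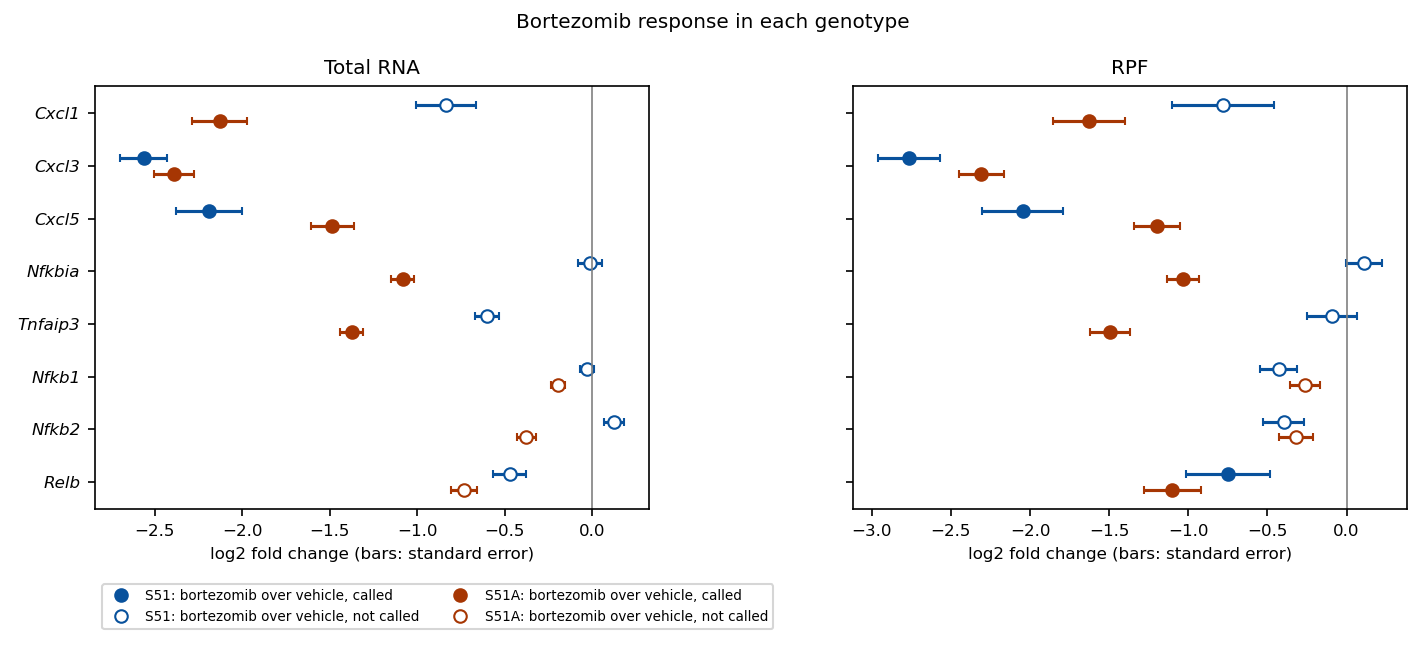
Log2 fold change of bortezomib over vehicle in S51 (blue) and S51A cells (brown) for total RNA (left) and RPF (right), with standard errors as bars and called changes as filled points. The responses of Nfkbia and Tnfaip3 lay apart between the genotypes, and those of Cxcl3 were close.

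The difference between the bortezomib responses was tested as an interaction. Positive values mean that the gene fell less, or not at all, in S51 cells. In RPF 2 of 8 genes were called higher, Nfkbia with 1.14 (SE 0.15, adjusted p = 2.04e-04) and Tnfaip3 with 1.40 (SE 0.20, adjusted p = 4.48e-04), where 0.878% of all genes were. In total RNA 2 of 8 were, Cxcl1 with 1.29 (SE 0.24, adjusted p = 3.76e-04) and Nfkbia with 1.07 (SE 0.10, adjusted p = 5.70e-08), where 0.316% of all genes were. Tnfaip3 mRNA differed by 0.77 (SE 0.10, adjusted p = 5.02e-06), under the 2-fold limit. Cxcl5 mRNA differed the other way, by -0.70 (SE 0.24, adjusted p = 0.0337), also under the limit, and for Cxcl3 the difference was -0.17 in total RNA (SE 0.18, adjusted p = 0.544) and -0.46 in RPF (SE 0.25, adjusted p = 0.392). Each response starts from a vehicle level that was itself higher in S51A cells.

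Translational efficiency (TE) was taken as RPF over total RNA, with the change tested in 1 model over all 31 libraries. No TE change was called for any of the 8 genes in any of the 5 comparisons, by edgeR or by DESeq2. Over all 9424 genes tested for TE, the share called was 5.28% for bortezomib in S51, 0.987% for bortezomib in S51A, 0.0849% for the genotypes under vehicle, 3.08% for the genotypes under bortezomib and 1.29% for the difference of the responses. At an unadjusted p below 0.05 there were 3, 0, 1, 3 and 3 of the 8 genes in these comparisons. The TE of Nfkb1, as the ratio of CPM in 1 lysate, was 0.619 ± 0.0220 (SD, n = 3) in S51 vehicle and 0.480 ± 0.0321 (n = 4) in S51 bortezomib, and 0.727 ± 0.0262 and 0.697 ± 0.0784 (n = 4 each) in S51A vehicle and bortezomib. Its log2 TE change in S51 cells was -0.41 (SE 0.11, adjusted p = 0.00955), and S51 lay below S51A under bortezomib by -0.55 (SE 0.10, adjusted p = 4.59e-04). Nfkb2 TE was 2.21 ± 0.342 under vehicle and 1.55 ± 0.263 under bortezomib in S51 cells, and 2.15 ± 0.210 and 2.23 ± 0.210 in S51A cells. The Nfkb2 change in S51 was -0.50 (SE 0.14, adjusted p = 0.0133) and the difference from S51A under bortezomib -0.51 (SE 0.13, adjusted p = 0.0101). These 4 TE values passed the adjusted p and not the fold of 1.5. Tnfaip3 TE was 0.744 ± 0.0544 in S51 vehicle and 1.10 ± 0.123 in S51 bortezomib without overlap (log2 change 0.51, SE 0.18, adjusted p = 0.0605), and 0.857 ± 0.0452 and 0.787 ± 0.195 in S51A cells. Ratios are compared between groups of 1 gene only, since they are not scaled to length.

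**Figure D5:**
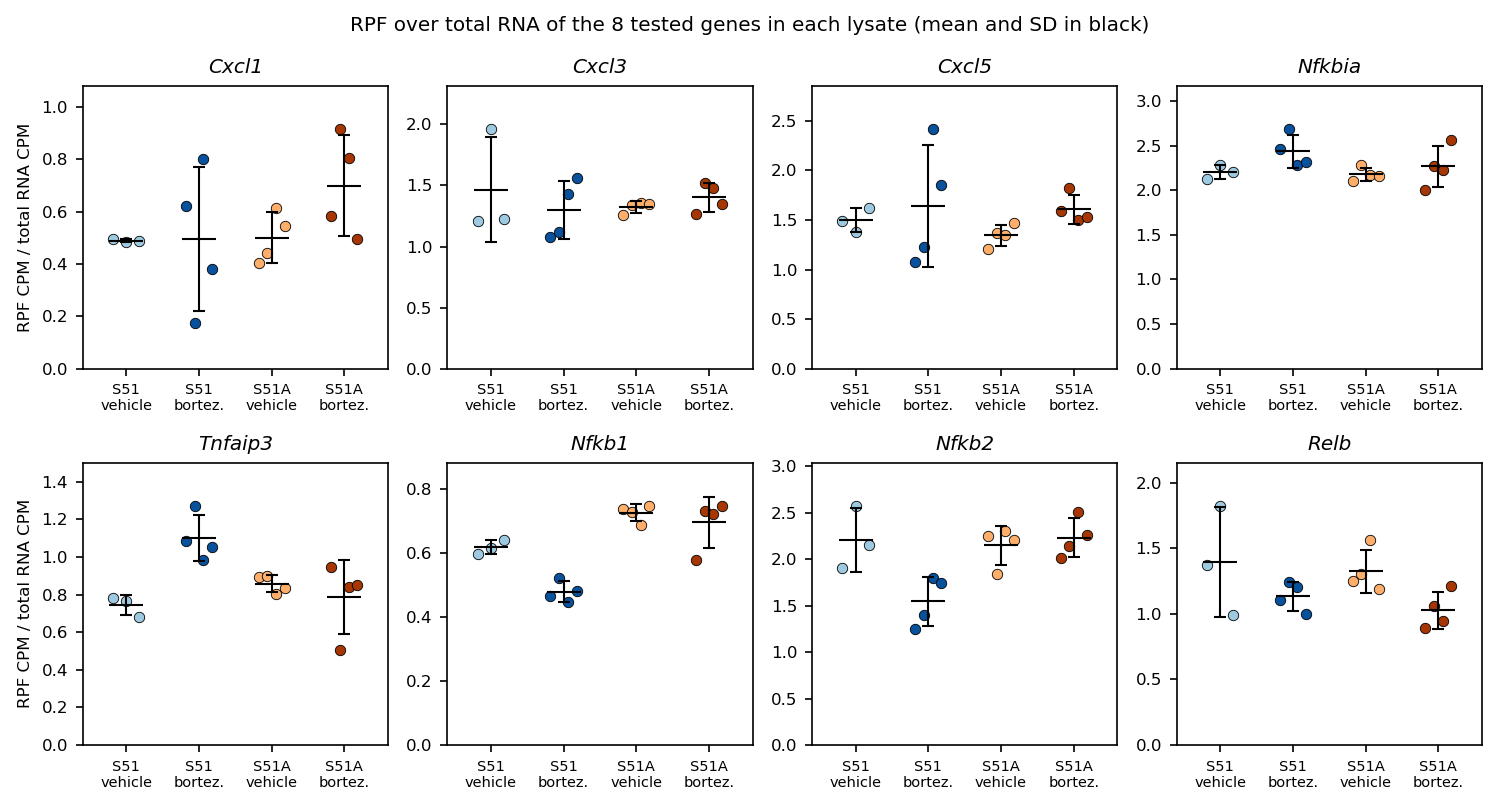
RPF CPM over total RNA CPM of the 8 tested genes (y axis, from 0), with 1 point per lysate, n = 3 in S51 vehicle and 4 in the other groups, and the mean and SD in black. Nfkb1 and Nfkb2 were lowest in S51 bortezomib, and Tnfaip3 was highest there.

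Of 95 other genes of the pathway, 62 could be tested in total RNA and 50 in RPF. With bortezomib 2 rose and 3 fell in S51 total RNA, where 1.96% of all genes tested rose and 3.02% fell. In S51A total RNA 0 rose and 2 fell, against 1.63% and 2.55% of all genes. In RPF 6 rose and 10 fell in S51 cells, against 7.38% and 11.2%, and 3 rose and 5 fell in S51A cells, against 4.19% and 6.67%. Map3k14, the kinase NIK of the noncanonical arm, rose from 10.6 to 26 CPM in S51 total RNA (log2 fold change 1.30, SE 0.08, adjusted p = 5.15e-13) and stood at 11.4 and 21.7 CPM in S51A cells (0.93, under the 2-fold limit). The adhesion molecule Icam1 was the other of these genes that rose in S51 total RNA (1.27, SE 0.21, adjusted p = 1.48e-05). Its level was low, with means of 0.863 and 2.11 CPM in S51 vehicle and bortezomib, and 2.80 and 4.22 CPM in S51A cells. Irak2, an adaptor kinase of interleukin 1 and Toll-like receptors, fell by 1.57 in S51 (SE 0.10, adjusted p = 3.02e-12) and by 1.04 in S51A cells (SE 0.09, adjusted p = 5.29e-10). The urokinase gene Plau fell by 1.51 in S51A total RNA (SE 0.08, adjusted p = 9.79e-14), with a change of -0.84 in S51 cells (adjusted p = 4.02e-09) that was under the fold limit. The chemokine Pf4, with means below 1 CPM in all groups, fell by 1.66 in S51 cells (SE 0.46, adjusted p = 0.00292), with a change of -0.99 in S51A cells (adjusted p = 0.045) that was under the limit too. Its means were 0.626 CPM in S51 and 0.622 in S51A vehicle, and 0.197 and 0.316 CPM under bortezomib. Pf4 thus passed the filter through vehicle libraries, which set the direction of its call in advance. It is among the 3 genes counted as falling in S51 total RNA.

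Between the genotypes most of the pathway genes were not called. In total RNA 1 was higher and 10 were lower in S51 under vehicle, against 2.41% and 5.47% of all genes, and 1 was higher and 8 were lower under bortezomib, against 2.74% and 5.54%. RPF gave 0 higher and 10 lower under vehicle, against 6.62% and 9.19%, and 1 higher and 8 lower under bortezomib, against 7.66% and 10%. Il1a, the cytokine interleukin 1α that activates NF-κB, averaged 0.895 CPM in S51 and 14.0 CPM in S51A vehicle (log2 fold change -3.96, SE 0.20, adjusted p = 1.36e-14), and 1.66 and 11.3 CPM under bortezomib (-2.76, SE 0.18, adjusted p = 2.55e-12). Its response to bortezomib differed between the genotypes by 1.20 (SE 0.31, adjusted p = 0.00783). The cytokine gene Il23a was lower in S51 under vehicle (-3.53, SE 0.28, adjusted p = 7.23e-11) and under bortezomib (-2.45, SE 0.27, adjusted p = 2.04e-08). Il18 was lower as well, by -2.40 under vehicle (SE 0.29, adjusted p = 8.79e-08) and by -2.61 under bortezomib (SE 0.29, adjusted p = 2.34e-08). Under vehicle Il23a averaged 0.236 CPM in S51 and 2.71 in S51A, and Il18 0.240 and 1.31. Under bortezomib the means were 0.384 and 2.12 CPM for Il23a, and 0.235 and 1.47 for Il18. With so few counts in S51, both passed the filter through S51A libraries, which set the direction of their calls in advance. The same limit held for Mmp13, at 0.179 CPM in S51 and 2.18 in S51A vehicle, and 0.347 and 1.75 CPM under bortezomib. It held under bortezomib for Csf3 as well, at 0.356 CPM in S51 and 1.97 in S51A. The counts of total RNA genes lower in S51 include these calls. Cxcl14, a chemokine of resting epithelium, was the gene higher in S51 in total RNA, by 2.64 under vehicle (SE 0.27, adjusted p = 7.22e-09) and by 2.34 under bortezomib (SE 0.27, adjusted p = 4.69e-08). Under vehicle and bortezomib its means were 2.13 and 2.03 CPM in S51, and 0.331 and 0.396 in S51A. It thus passed the filter through S51 libraries, with the same limit. The gene higher in RPF under bortezomib, looked up after its value was seen, was Birc2, which encodes a ubiquitin ligase of TNF receptor signaling (0.83, adjusted p = 0.0405).

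By list, total RNA calls of S51 over S51A under vehicle were as follows, members of the 10 genes included. The NF-κB subunits and precursors had 0 higher and 1 lower of 5 tested, and IκB proteins 0 and 1 of 5. The IKK complex and its partners had 0 and 0 of 6, and ubiquitin editing and feedback inhibitors 0 and 2 of 9. Receptors and adaptors had 0 and 0 of 18, upstream cytokines 0 and 3 of 3, and chemokines 1 and 4 of 8. Chemokine receptors had 0 and 0 of 1, and other target genes 0 and 4 of 15. Over all genes tested, 2.41% were called higher and 5.47% lower in S51. The 3 cytokines were below 1 CPM in S51 vehicle (Il1a 0.895, Il1rn 0.881 and Il18 0.240), and Il18 passed the filter through S51A libraries. So did the other target genes Il23a and Mmp13, at 0.236 and 0.179 CPM in S51 vehicle against 2.71 and 2.18 CPM in S51A vehicle. The chemokine called higher, Cxcl14, passed it through S51 libraries. The filter set the direction of these calls in advance, and the counts by list include them.

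Across the 16 total RNA libraries, the log2 CPM of each tested gene was compared with that of 11700 genes outside the 10, pathway genes included. The most alike was Lrrc8a for Cxcl3 (Pearson's r 0.994), Spns2 for Cxcl5 (0.993), Ywhah for Relb (0.991) and Vmp1 for Tnfaip3 (0.978). For the others it was Neat1 for Nfkbia (0.971), Rhob for Nfkb2 (0.962), Adnp2 for Cxcl1 (0.946) and Pip5k1a for Nfkb1 (0.943). Among the 8 genes themselves r ran from 0.565 between Cxcl5 and Nfkbia to 0.968 between Cxcl5 and Relb. These are descriptions over libraries that share 4 groups, in which the points of 1 group lie together.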

How the data were processed

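The authors deposited raw read counts per gene, 1 table for RPF and 1 for total RNA of the same lysates, with no normalization. Per their methods, the labels and the column names, reads were trimmed with FastX and aligned to mm10 with Bowtie2. Regions of transcripts were defined with plastid, uniquely mapping reads were counted, and the labels also name featureCounts and DESeq2. RPF counts cover the coding sequence without codons at its ends. Tool versions are not given in the sources used here. Up to 8 RPF libraries shared an rRNA depletion pool. Unique mapping lowers counts of near-identical genes.

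Identifiers matched a RefSeq gene name for 20687 of 20704 RPF and 24569 of 24593 total RNA genes. In R 4.3.3, edgeR 4.0.16 scaled counts by TMM, filtered genes with filterByExpr (10 counts, total of 15) and fitted all groups together (glmQLFit, glmQLFTest), leaving 9457 RPF, 11708 total RNA and 9424 TE genes. P-values were adjusted by Benjamini-Hochberg over all genes of a comparison. No replicate pair agreed within sampling noise, since chi-square per gene was at least 1.65 in RPF and 2.75 in total RNA. A count floor of 3 covers counting error only. The steps were tested on simulated data. Alternatives were DESeq2 1.42.0, RLE factors, library sizes alone, no filter, only the groups compared, replicate or lysate blocks, the study's 2-step TE rule and each library left out.

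The 10 genes, the pathway and marker lists and the tests were chosen with earlier results of these data known. Named are all 10 genes, up to 2 called other pathway genes with the largest change in each direction per total RNA comparison, the most similar gene of each tested gene, and Hspa1b as a check. Outside this rule, Il1rn, Mmp13 and Csf3 are named for their low levels, and Birc2 was looked up after its value was seen.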

Additional observations from a re-analysis of the deposited data

Results flagged for a closer look

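In 56 groups of 4 libraries checked (8 genes, RPF and total RNA), 1 library stood apart by Dixon's test, while chance flags about 1 in 20 groups. Cxcl5 RPF in S51 bortezomib replicate 3 was 12.1 CPM, where the other libraries of the group lay between 5.74 and 6.16 CPM. Without it the log2 fold change of bortezomib over vehicle in S51 was -2.50 (edgeR's quasi-likelihood test, adjusted p = 2.16e-06).

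The bortezomib response differed between the genotypes past an adjusted p of 0.05 (edgeR's quasi-likelihood interaction test) in 8 results, given as S51 minus S51A on the log2 scale. In RPF these were Nfkbia with 1.14 and Tnfaip3 with 1.40. In total RNA they were Cxcl1 with 1.29, Nfkbia with 1.07, Tnfaip3 with 0.77, Nfkb2 with 0.50, Nfkb1 with 0.17 and Cxcl5 with -0.70. Cxcl5 was the only one of them that fell more in S51 cells. The share of all genes past this adjusted p alone was not counted, so the number of such results is not read as particular to these genes.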

How the results depend on the processing

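Counts of called genes were the same under DESeq2, RLE factors and the lysate block in all comparisons. With no filter on low counts 1 more gene was called, Cxcl2 total RNA between genotypes under bortezomib (-1.83, adjusted p = 0.00964), and no other count moved. Under library sizes alone 1 TE change was called for bortezomib in S51 (Tnfaip3, 0.67, adjusted p = 0.00771), and under the study's 2-step rule (RPF called and RPF minus total RNA past the fold) 1 for the difference of the responses (Tnfaip3), against 0 of each. Library sizes alone moved the median of all genes in total RNA with bortezomib to -0.16 in S51 and -0.13 in S51A, from -0.01 in both. The replicate block and the fit of only the groups compared ended the RPF call of Relb in S51 (-0.69, adjusted p = 0.0652, and -0.77, adjusted p = 0.0908) and changed no other call. The labels do not say what a replicate number marks, so the numbers were not taken as a pairing in the main fits. Deviations of same-numbered libraries correlated over 0.1 in 8 of 24 total RNA and 3 of 21 RPF pairs. In total RNA all 24 correlations were above 0 (0.0021 to 0.19). There 21 were the best with their own number, against 9 of 21 in RPF. Libraries of total RNA may thus share something by replicate number, a hint from the data and not from the design. The main fits leave it out. Whether the loss of the Relb call means a weaker effect was not tested. With each library left out, counts ran from 2 to 4 for RPF in S51 with bortezomib, and from 0 to 1 for TE with bortezomib in S51, for TE between genotypes under bortezomib and for the TE difference of the responses. The TE calls were Nfkb2 (-0.60 and -0.65) without RPF S51 vehicle replicate 3 and Nfkb1 (-0.61) without RPF S51A bortezomib replicate 1. No other count moved with a library left out, and the cause of these changes was not tested.

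No value that changed sign was called. Library sizes alone gave 0.011 for Tnfaip3 RPF between genotypes under bortezomib, -0.030 for Nfkb2 total RNA with bortezomib in S51 and 0.012 for Nfkb1 TE with bortezomib in S51A. The replicate block gave TE values of 0.018 for Cxcl5 (difference of the responses), and of -0.013 for Cxcl1, -0.0058 for Nfkbia and -0.023 for Relb between genotypes under vehicle, where the lysate block gave -0.0063 for Cxcl1. With each library left out, 22 of 120 log2 changes changed sign. In RPF these ran from -0.0047 to 0.16 (Nfkbia, bortezomib in S51), -0.17 to 0.046 (Tnfaip3, genotypes under bortezomib) and -0.17 to 0.032 (Nfkb2, difference of the responses), and in total RNA from -0.059 to 0.034 (Nfkbia, bortezomib in S51) and -0.21 to 0.017 (Cxcl1, genotypes under bortezomib). TE with bortezomib in S51 ran from -0.19 to 0.25 (Cxcl1), -0.37 to 0.0083 (Cxcl3), -0.33 to 0.28 (Cxcl5) and -0.0018 to 0.17 (Nfkbia), and in S51A from -0.030 to 0.25 (Cxcl3), -0.0085 to 0.11 (Nfkb2), -1.1e-04 to 0.10 (Nfkbia) and -0.19 to 0.029 (Tnfaip3). TE between genotypes under vehicle ran from -0.16 to 0.30 (Cxcl1), -0.041 to 0.35 (Cxcl3), -0.037 to 0.17 (Nfkb2), -0.032 to 0.16 (Nfkbia) and -0.15 to 0.35 (Relb), under bortezomib from -0.29 to 0.012 (Cxcl3) and -0.33 to 0.27 (Cxcl5), and for the difference of the responses from -0.048 to 0.12 (Nfkbia) and -0.19 to 0.29 (Relb). The lowest RPF count of a library was 2 for Cxcl1, 6 for Cxcl5, 9 for Relb and 12 for Cxcl3, which limits their RPF values, and it was at least 42 for the other genes tested.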

Other observations

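Cxcl1 total RNA was higher in replicates 1 and 2 than in replicates 3 and 4 in each of the 4 groups, for instance 60.1 and 58.5 against 39.9 and 38.8 CPM in S51A vehicle. Cxcl3 total RNA fell from replicate 1 through replicate 4 in each of the 4 groups. Cxcl5 total RNA was highest in replicate 1 and lowest in replicate 4 in each group. The labels give no batch for these numbers.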
